A study of Mus musculus with 2744 samples.

Results

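On Day 6 of differentiation, 186 single cells fell into 2 classes, 89 cycling cells and 97 neurons, of 425 Day 6 cells kept from plates with no eGFP tag and of 2448 cells kept in the whole series. A cell was called cycling if the transcript of Top2a, the topoisomerase that untangles DNA strands before mitosis, reached 100 CPM, the usual count unit scaled to all gene reads of the cell, and that of Stmn2, a microtubule regulator of growing axons, stayed under 100 CPM. A cell was called a neuron if Stmn2 reached 500 CPM with 0 Top2a reads. Only cells with a read in at least 500 genes were kept. The classes were therefore chosen by measured levels of Top2a and Stmn2, and both genes were left out of every test.

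The study followed mouse embryonic stem cells that were differentiated as embryoid bodies into motor neurons, with single cells collected on Days 2 to 6. Embryoid bodies were dissociated with papain, single cells were sorted into plates, and polyadenylated RNA was read with a modified CEL-seq protocol, which counts reads near the 3' end of transcripts. The labels give 2 biological replicates, a main and a pilot experiment. All Day 6 cells described first came from the same kind of culture, 354 kept cells on 4 main plates and 71 on 2 pilot plates, with no sort for eGFP. The tables hold a row for the Egfp reporter, and the promoter that drives the reporter is not named in the labels. Each class is a gate on the same unsorted cultures, so no treatment or genotype differs between the classes.

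In the ventral spinal cord, neurons arise from dividing neuroepithelial progenitors that carry SoxB1 transcription factors and Notch signalling. Cells leave the cell cycle as proneural basic helix-loop-helix factors take over, then switch on tubulins, neurofilaments, RNA-binding proteins of the Elavl family and the transmitter genes of their subtype. Dividing cells pass through S phase, when DNA is copied by the Mcm helicase and the replisome, and through G2 and mitosis, when cyclin B with Cdk1, the kinetochore and the spindle separate the chromosomes.

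In the main experiment 61 cells were cycling and 89 were neurons, and in the pilot experiment 28 and 8. On the 4 main plates the cycling and neuron counts were 23 and 20, 6 and 26, 15 and 26, and 17 and 17, and on the 2 pilot plates 16 and 4, and 12 and 4. Cycling cells made up 17.2% of kept main cells (95% Wilson interval 13.7 to 21.5) and 39.4% of kept pilot cells (28.9 to 51.1). Neurons made up 25.1% (20.9 to 29.9) and 11.3% (5.82 to 20.7). These intervals cover counting error only. By this gate the pilot experiment held the higher share of cycling cells and the lower share of neurons. A further 18 main and 6 pilot cells had Stmn2 at 500 CPM or more and failed the neuron gate on Top2a reads under 100 CPM. The median kept cell had 143720.5 gene reads in the main experiment and 871541 in the pilot. The part of depth in these shares was not tested.

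The values that chose the cells are a description and carry no test. In cycling cells Top2a (chromosome 11, 98992943 to 99024189, GRCm38) ranged from 119 to 17676 CPM with a median of 980 on main plates, and from 176 to 10842 with a median of 863 in the pilot. In neurons Stmn2 (chromosome 3, 8509360 to 8561606) ranged from 500.2 to 22483 CPM with a median of 2242 in the main experiment, and from 592 to 5800 with a median of 1689 in the pilot. The nearest Top2a values inside and outside the cycling threshold were 119 and 95.2 CPM. For Stmn2 they were 500.2 and 450.0 CPM at the neuron threshold, and 96.2 and 109 CPM at the cycling threshold. Stmn2 reads were not unique to neurons: at 10000 reads a cell, Stmn2 was read in 46.8% of 355 main cells of Day 2. The share was lower in the pilot, at 10.8% of 74 cells of Day 2. On Day 4 Stmn2 was read in 4.42% of 226 main cells and 3.51% of 57 pilot cells. The cause of the high share in main Day 2 cells was not tested. The plot of both transcripts shows the neuron class as a column at 0 Top2a, and the cycling class at low Stmn2, with a median of 0 CPM on main plates and 1.53 CPM on pilot plates.

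**Figure D1:**
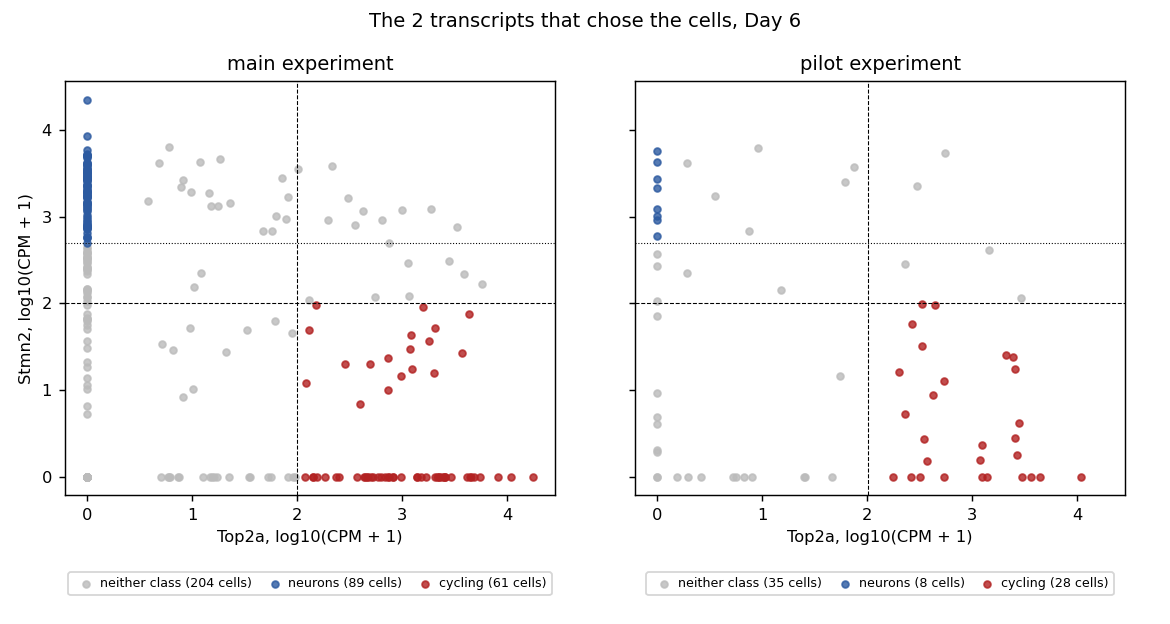
Top2a (horizontal) against Stmn2 (vertical), both as log10(CPM + 1), in every kept Day 6 cell with no eGFP tag, main experiment left and pilot right. Dashed lines mark 100 CPM and the dotted line 500 CPM. Red points are the 61 and 28 cycling cells, blue points the 89 and 8 neurons, and grey points the 204 and 35 cells of neither class.

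Depth was similar for both classes of the main experiment and not for those of the pilot. The median cell had 164545 gene reads in main cycling cells, 155987 in main neurons, 1127796 in pilot cycling cells and 539549.5 in pilot neurons, with medians of 2758, 2594, 3856 and 2674.5 genes. Over the 6 plates the difference of the classes' median log2 gene reads, cycling minus neurons, was 0.55 ± 0.49 (SD, n = 6 plates), positive on 5 plates (exact sign-flip test, two-sided, p = 0.0625, adjusted p = 0.0833 over 4 readouts). The number of genes with a read differed by 0.20 ± 0.21 (SD, n = 6) on the log2 scale and the ratio of gene reads to spike-in reads by 0.33 ± 0.35, each positive on 6 of 6 plates (exact p = 0.03125, the smallest that 64 sign flips allow, adjusted p = 0.0625). After thinning every cell to 10000 gene reads, the classes differed by 89.8 ± 157 genes (SD, n = 6), positive on 4 plates (exact p = 0.219, adjusted p = 0.219). None of the 4 readouts passed the threshold of 0.05 after adjustment. The neuron gate asks for 0 Top2a reads, and depth moves the detection of Top2a, so the readouts are not independent of the gate. Cells with Stmn2 at 500 CPM or more and Top2a reads under 100 CPM failed it. Their median gene reads were 217868 in 18 main cells and 1392138.5 in 6 pilot cells. The part of the gate in these differences was not tested. With every cell thinned to 10000 reads, the gene test described below called 279 genes in place of 314, with 202 in both.

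Few markers of other cell types separated the classes, and their lists differed in summed level. Of 15 pluripotency genes 4 passed the filter on low counts, and their list summed to 20.6 CPM in main cycling cells, 46.8 in main neurons, 79.7 in pilot cycling cells and 43.4 in pilot neurons. The 17 endoderm genes summed to 165, 108, 237 and 25.9 CPM, the 15 mesoderm genes to 10.6, 29.7, 5.16 and 12.9, and the 10 neural crest and placode genes to 8.26, 12.1, 12.2 and 1.39. No gene of these 4 lists was called by edgeR, nor any of 12 glial genes (107, 163, 152 and 233 CPM). An unadjusted p under 0.05 was seen for 1 endoderm gene and 0 genes of the other lists, and DESeq2 called 2 endoderm genes and 0 of the others. The 10 endothelial and blood genes summed to 10.02, 141, 0.168 and 14.9 CPM, with Tal1, a factor shared by blood and V2b interneurons, the called member. The 9 floor plate genes summed to 53, 761, 53.5 and 841 CPM, with the secreted guidance cue Slit2 the called member.

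To ask which transcripts separated the classes, the reads of all cells of 1 class and experiment were added into 1 sum, which gave 4 sums, and compared with edgeR's quasi-likelihood test with the experiment as a block. Of 11341 genes tested, 314 were called at an adjusted p under 0.05 (2.77%), 174 higher in cycling cells (1.53%) and 140 higher in neurons (1.23%). In the summed CPM all 314 had the same direction in both experiments, and when the pilot plates were fitted alone 283 of 289 tested had it. The 314 were called from these same sums and the pilot fit used the same cells, so this agreement is no replication. Before adjustment 1085 of the 11341 genes were at p under 0.05, and DESeq2 called 847. Genes transcribed together with Top2a or Stmn2 follow the choice of cells, so the counts over cell cycle and neuronal lists describe the classes and do not support them. The median gene tested had a log2 change of 0.47, which fell to 0.06 over the 1439 genes at 50 CPM or more in all 4 sums, and the log2 changes below are best read against it. The count rested on 1 residual degree of freedom: without the block 13 genes were called, and 2 when the spread was shared with the Day 5 classes. It was 77 without pilot plate 1 and 153 without main plate 2, and pilot neuron sums came from 8 cells, so that 1 cell often gave most of a gene's reads.

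The classes were also described by Sox2, a SoxB1 progenitor factor, and Elavl3, a neuronal RNA-binding protein. Sox2 (chromosome 3, 34650405 to 34652461) was at 169.5 CPM in main cycling cells and 159 in pilot cycling cells, against 3.98 and 44.4 in neurons. It was higher in cycling cells (log2 change 3.72 ± 0.93 SE, edgeR adjusted p = 0.014), and the pilot neuron value came from 1 cell. After thinning to 10000 reads, Sox2 had a read in 30 of 61 main cycling cells (49.2%, Wilson 37.1 to 61.4) and in 3 of 89 main neurons (3.37%, 1.15 to 9.45). Elavl3 (chromosome 9, 22015005 to 22052023) was at 347 and 203 CPM in main and pilot neurons against 23.7 and 32.3 in cycling cells (log2 change -3.15 ± 0.64 SE, adjusted p = 0.0014). It had a read in 46 of 89 main neurons (51.7%, 41.5 to 61.8) and in 5 of 61 main cycling cells (8.2%, 3.55 to 17.8). In the pilot, Elavl3 had a read in 8 of 28 cycling cells (28.6%, 15.3 to 47.1) and 5 of 8 neurons (62.5%, 30.6 to 86.3). Sox2 had a read in 13 of 28 pilot cycling cells and 1 of 8 pilot neurons. Both markers differed in the direction of the class names, and they describe the classes and do not support them.

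Part of the genes that copy DNA were higher in cycling cells. Of 25 pre-replication and replisome genes, all tested, 10 were called higher in cycling cells, 15 were not called and none was called higher in neurons, with a list median log2 change of 4.76 against 0.47 for all genes. They were 6 Mcm helicase genes (Mcm2, Mcm3, Mcm5, Mcm6, Mcm7 and the initiation factor Mcm10), the helicase loader Cdc6, Gins2 of the active helicase, the sliding clamp Pcna and the ligase Lig1. Pcna was at 843 CPM in main cycling cells and 514 in pilot cycling cells against 82.6 and 29.5 in neurons (log2 change 3.85 ± 0.52 SE, adjusted p = 1.7e-06). Mcm7 was at 382 and 222 CPM against 48 and 28.7, and Mcm6 at 202 and 196 against 22.5 and 16.7. Gins4, of the same complex as Gins2, did not pass, at 46.2 and 8.48 CPM in cycling cells and 22.8 and 50.1 in neurons (-0.66 ± 1.69, adjusted p = 1). Pcna reads were present in both classes, in 51 of 61 main cycling cells and 45 of 89 main neurons before thinning, and the classes differed in level.

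Mcm10 had no read in any neuron of either experiment. It was at 91.2 CPM in 13 of 61 main cycling cells and 73.4 CPM in 12 of 28 pilot cycling cells, at least 435-fold and at least 123-fold higher when each neuron sum is set to a floor of 3 reads. In the main experiment 1 cell gave 67% of its main reads. Fitted changes of genes with no read in a class depend on edgeR's prior count and are no bound.

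Of 12 genes of nucleotide supply 5 were called, all higher in cycling cells, with a list median of 4.78. Rrm2, the ribonucleotide reductase subunit that makes deoxynucleotides, was at 539 and 549 CPM in cycling cells against 39.1 and 3.38 in neurons (log2 change 5.59 ± 0.69 SE, adjusted p = 2.8e-07). The thymidine kinase Tk1 was at 81.2 and 66.1 CPM against 0.628 and 0, and the dUTPase Dut at 232 and 313 against 26.4 and 0.199. Impdh2, of guanine nucleotide synthesis, was expressed in both classes, at 1333 and 1564 CPM in cycling cells and 453 and 378 in neurons. The remaining called member was Cad, of pyrimidine synthesis.

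Among 15 G1/S regulators, 13 were tested and 2 were called, the D cyclins Ccnd1 and Ccnd2. Ccnd2 was at 439 and 225 CPM in cycling cells and 83.1 and 16.7 in neurons (log2 change 3.18 ± 0.59 SE, adjusted p = 0.00045). Ccnd1 was at 147 and 107 CPM against 0.838 and 32.6 (4.60 ± 1.31, adjusted p = 0.042), and 1 cell gave 68% of its main cycling reads. The pilot neuron reads of Ccnd1 all came from 1 cell.

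Genes of G2 and mitosis formed the fullest group. Of 26 cyclins, kinases and regulators of G2/M, all tested, 16 were called higher in cycling cells and none higher in neurons, with a median log2 change of 6.48. Cyclin B1, Ccnb1 (chromosome 13, 100778650 to 100786570), was at 447, 806, 609 and 555 CPM in the cycling cells of main plates 1 to 4 and at 453 and 772 in those of pilot plates 1 and 2. In the neurons of the same plates it was at 0, 0, 0, 5.83, 18.3 and 0.496 CPM. The lowest cycling plate lay above the highest neuron plate, and the log2 change was 7.41 ± 0.75 SE (adjusted p = 5.5e-09). Ccna2, cyclin A2, was at 290 and 131 CPM against 1.12 and 0, and Cdk1, their kinase partner, at 207 and 157 against 3.98 and 0.398.

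The called members also included mitotic kinases and genes of the anaphase-promoting complex, which tags mitotic proteins with ubiquitin. Plk1 was at 248 and 236 CPM against 13 and 18.3 (log2 change 4.08 ± 0.68 SE, adjusted p = 8.3e-05), and Aurkb, the Aurora kinase of the chromosomal passenger complex, at 285 and 103 against 4.54 and 0. The other passenger genes Birc5 and Cdca8 were also called, at 317 and 288 and at 404 and 318 CPM in cycling cells. Cdc20, the activator of the complex, was at 184 and 243 CPM against 5.86 and 0.199. Its ubiquitin-conjugating enzyme Ube2c was at 505 and 329 against 26.9 and 59.3 (3.46 ± 0.60, adjusted p = 0.00014), with 98% of the pilot neuron reads from 1 cell. Fbxo5, an inhibitor of the same complex, was at 235 and 129.6 CPM in cycling cells, with no read in 89 main neurons (at least 1125-fold lower) and 1 read in pilot neurons. Fzr1, another activator of the complex, did not pass, at 49.4 and 17.3 CPM in cycling cells and 49.8 and 52.9 in neurons (-0.70 ± 1.20, adjusted p = 1).

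Of 20 kinetochore genes 19 were tested and 9 were called higher in cycling cells, with a median of 5.50. Ska1, of the complex that couples kinetochores to microtubules, was at 510 and 356 CPM against 7.75 and 0.398 (log2 change 7.59 ± 0.77 SE, adjusted p = 5.6e-09). The kinetochore motor Cenpe and the Ndc80 protein had no read in any neuron, and Cenpe was at 76.1 and 73.4 CPM in cycling cells, at least 364-fold and at least 123-fold higher. Of 24 spindle and cytokinesis genes 23 were tested and 11 were called, with a median of 6.46. The chromosome-arm kinesin Kif22 was at 415 and 174 CPM against 18.8 and 0.199, and the midzone bundler Prc1 at 203 and 71.8 against 6.07 and 3.58. Kpna2, an importin that also serves interphase transport, was at 855 and 513 CPM in cycling cells and 190 and 214 in neurons.

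Among 20 genes of condensin, cohesin and mitotic chromatin 7 were called, all higher in cycling cells, with a median of 2.49. Mki67, the coat protein of mitotic chromosomes, was at 145 and 664 CPM in cycling cells against 6.98 and 0.398 (log2 change 7.06 ± 0.94 SE, adjusted p = 1.2e-06). The abundant chromatin proteins Hmgb2 and Hmgn2 were read in both classes, Hmgb2 at 555 and 494 CPM against 91.4 and 80.8. Of 11 genes of DNA methylation and chromatin replication 5 were called. They were the maintenance methyltransferase Dnmt1 (250 and 159 CPM against 57 and 23.5), its partner Uhrf1 (155 and 351 against 11.6 and 0.398), the histone chaperone Asf1b, the remodeller Hells and the bromodomain protein Atad2.

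By the naming rule, the 12 genes with the highest fitted rise among the called genes were Mcm10, Cenpe, Melk, Fbxo5, Trip13, Nusap1, Zwilch, Ckap2l, Ccna2, Sgol1, Helb and Asf1b. Melk, a mitotic kinase, was at 62.5 and 74.6 CPM in cycling cells and had no read in neurons, at least 299-fold and at least 125-fold higher. Trip13, an ATPase of the spindle checkpoint, was at 69.7 and 69.8 CPM against 0.0698 and 0, and the spindle protein Nusap1 at 65.7 and 71.9 against 0.0698 and 0. The centromere protector Sgol1 was at 160 and 74 CPM against 0.279 and 0.199. Helb, a DNA helicase, was read in 8 of 61 main and 5 of 28 pilot cycling cells, so its 340.2 and 70.8 CPM came from few cells.

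Promoters of these genes are shown because the mitotic genes moved as a group and are known as a class to share promoter letters. Genes of late cell cycle often carry a CHR element with CCAAT boxes, read by the DREAM complex and by NF-Y, and replication genes often carry E2F sites. In RefSeq promoter windows (GRCm38.p6, 250 bases before to 50 after a start), the letters TTTGAA or TTTAAA for CHR, CCAAT, and TTTGGCGC, TTTCCCGC or TTTCGCGC for E2F were searched on both strands, and the E2F letters can overlap one another across strands. The genes shown were picked among called genes for holding these letters in the 250 bases, so their matches are no evidence about the lists. The sequences below are the 250 bases before the start, 5' to 3' on the gene's strand, with CHR and CCAAT letters in capitals for the mitotic genes and E2F letters in capitals for the Mcm genes.
Ccnb1, chr13:100786487-100786736, minus strand: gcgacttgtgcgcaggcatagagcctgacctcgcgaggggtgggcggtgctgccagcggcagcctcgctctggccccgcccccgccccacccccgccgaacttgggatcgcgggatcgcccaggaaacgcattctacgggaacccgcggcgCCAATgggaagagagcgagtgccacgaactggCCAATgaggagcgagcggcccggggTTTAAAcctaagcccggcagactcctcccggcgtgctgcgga
Cdk1, chr10:69352913-69353162, minus strand: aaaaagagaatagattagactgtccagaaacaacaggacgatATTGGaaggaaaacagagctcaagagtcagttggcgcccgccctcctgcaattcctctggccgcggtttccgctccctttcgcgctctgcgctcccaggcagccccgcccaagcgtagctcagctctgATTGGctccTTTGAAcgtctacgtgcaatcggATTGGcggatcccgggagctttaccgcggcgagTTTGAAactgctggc
Cdc20, chr4:118437344-118437593, minus strand: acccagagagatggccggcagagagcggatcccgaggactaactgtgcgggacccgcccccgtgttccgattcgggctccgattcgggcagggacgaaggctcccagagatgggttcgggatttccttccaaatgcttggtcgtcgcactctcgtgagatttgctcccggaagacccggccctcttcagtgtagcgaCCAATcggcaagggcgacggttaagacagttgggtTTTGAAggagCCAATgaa
Kif22, chr7:127042421-127042670, minus strand: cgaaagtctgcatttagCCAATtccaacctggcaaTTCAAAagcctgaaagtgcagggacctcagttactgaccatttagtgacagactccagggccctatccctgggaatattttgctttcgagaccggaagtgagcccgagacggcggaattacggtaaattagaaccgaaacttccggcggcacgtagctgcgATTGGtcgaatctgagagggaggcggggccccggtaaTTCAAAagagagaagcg
Mcm6, chr1:128359706-128359955, minus strand: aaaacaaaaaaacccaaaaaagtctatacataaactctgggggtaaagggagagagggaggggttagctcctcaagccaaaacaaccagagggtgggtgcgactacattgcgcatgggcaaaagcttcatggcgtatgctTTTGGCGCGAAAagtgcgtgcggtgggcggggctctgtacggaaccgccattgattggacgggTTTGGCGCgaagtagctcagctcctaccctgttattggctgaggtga
Mcm5, chr8:75109259-75109508, plus strand: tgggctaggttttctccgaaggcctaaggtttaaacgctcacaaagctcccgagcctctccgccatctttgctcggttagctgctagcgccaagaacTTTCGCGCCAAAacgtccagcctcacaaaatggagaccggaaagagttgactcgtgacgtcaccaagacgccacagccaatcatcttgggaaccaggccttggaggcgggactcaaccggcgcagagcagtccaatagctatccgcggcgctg

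Both CHR and CCAAT letters stood in 15 of 23 windows of the G2/M list (65.2%) and in 17 of 24 windows of the spindle list (70.8%), against 10.7% of all 32851 windows. E2F letters stood in 11 of 24 windows of the replisome list (45.8%), against 4.35% of the G2/M windows and 1.84% of all windows. Nucleotide supply, the other S phase list, had them in 0 of 11 windows. The share was 38.5% for DNA methylation and chromatin replication, 33.3% for G1/S regulators and 26.3% for condensin and cohesin. It was also 25% for ribosome biogenesis, a list with no gene called by edgeR. CHR with CCAAT letters stood in 46.2% of the DNA methylation and chromatin replication windows and 42.1% of the condensin and cohesin windows. They stood in 33.3% of the kinetochore windows, and also in 33.3% of the 12 Hox windows and 33.3% of the 12 mesoderm windows. They stood in 6.67% of the growth cone and axon cytoskeleton windows. Over the called genes they stood in 49 of 162 windows of genes higher in cycling cells (30.2%) and 10 of 149 of genes higher in neurons (6.71%). A match is a description of letters and marks no site of binding, and windows of 1 gene can overlap.

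Single cells of the cycling class differed in their sums of S phase and of G2/M reads. Each cell was thinned to 10000 reads and its reads were summed over 37 S phase genes (replisome and nucleotide supply) and over 70 genes of G2/M, kinetochore and spindle. In main cycling cells the S phase sum ranged from 0 to 152 reads with a median of 62, and the G2/M sum from 11 to 285 with a median of 81. In main neurons the medians were 7 and 10 reads. Pilot cycling cells had medians of 56.5 and 41, and pilot neurons 10 and 10.5. The G2/M sum exceeded the S phase sum in 37 of 61 main and 12 of 28 pilot cycling cells, and the S phase sum was the higher in 20 and 16. The lists differ in length and in the level of their genes, so these counts are no estimate of phase.

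**Figure D2:**
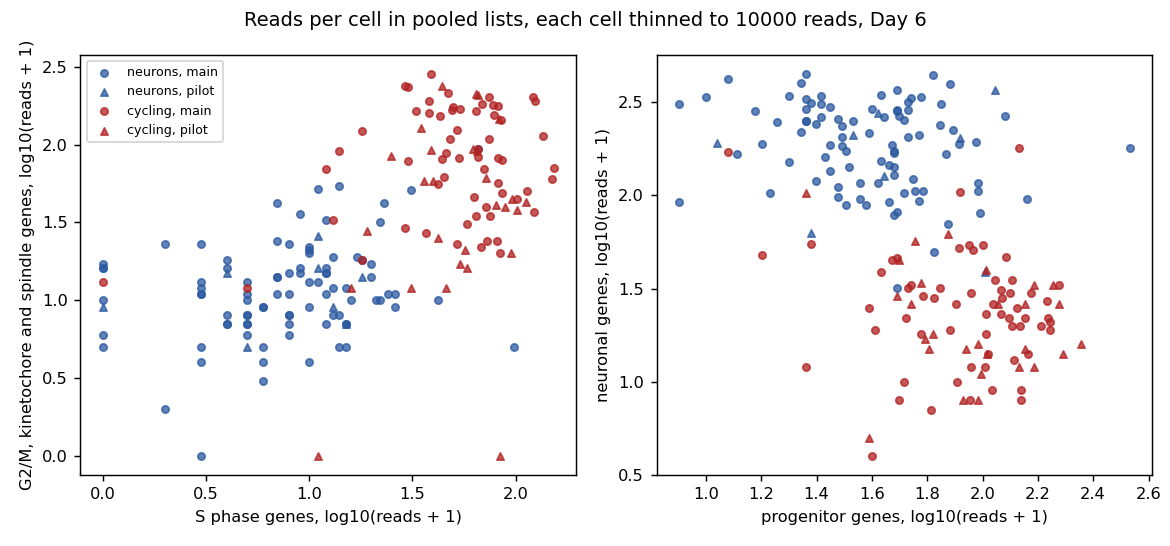
Reads per cell after thinning to 10000 reads, as log10(reads + 1), for cycling cells (red) and neurons (blue), circles main and triangles pilot. Left, S phase genes against G2/M, kinetochore and spindle genes: medians of 62 and 81 reads in main cycling cells and of 7 and 10 in main neurons. Right, progenitor genes against neuronal genes: medians of 99 and 24 in main cycling cells and of 42 and 193 in main neurons.

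Part of the transcripts of neuroepithelial progenitors were higher in cycling cells. Of 18 neural progenitor factors 15 were tested, 6 were called higher in cycling cells and 1 higher in neurons, with a median log2 change of 3.72. The SoxB1 factor Sox3 was at 1123 and 1962 CPM in cycling cells against 25.2 and 0.199 in neurons (log2 change 8.34 ± 0.93 SE, adjusted p = 2.8e-08). Hes5, a Notch target that represses neurogenesis, was at 989 and 599 CPM against 17.5 and 192 (3.83 ± 0.72, adjusted p = 0.0005), and the pilot neuron reads came from 1 cell. Its relative Hes1 was at 133 and 41.2 CPM against 5.44 and 0. At 10000 reads a cell, no SoxB1 gene (Sox1, Sox2, Sox3) was read in 11 of 61 main cycling cells, 1 in 25 and more than 1 in 25. Other progenitor markers separated the classes less. Sox1 was read in 8 of 61 main cycling cells and 4 of 89 main neurons, Pax6 in 14 and 10, and Nes in 10 and 4. For each of these genes the Wilson intervals of the classes overlapped.

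The inhibitors of basic helix-loop-helix factors did not move one way. Id1 was at 166 and 195 CPM in cycling cells and 33.3 and 14.7 in neurons (3.13 ± 0.74, adjusted p = 0.0077), and Id3 at 133 and 132 against 25.4 and 0. Id4 was at 6.68 and 9.22 CPM in cycling cells and 437 and 192 in neurons (log2 change -5.09 ± 0.70 SE, adjusted p = 2.5e-06). Id4 was read in 27 of 89 main neurons and 2 of 8 pilot neurons, with 97% of the pilot reads in 1 cell. It was higher in neurons on 5 of 6 plates. With Elavl3 in place of Stmn2 in both gates its direction turned (log2 change 2.07). That gate left 17 main and 2 pilot neurons, here and wherever Elavl3 is put in the gates below.

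Of 20 radial glia and progenitor structure genes 18 were tested, 8 were called higher in cycling cells and 1 higher in neurons (median 3.51). The growth factor midkine, Mdk, was at 3560 and 3852 CPM in cycling cells against 465 and 303 (log2 change 3.41 ± 0.48 SE, adjusted p = 3.5e-06), and was read in 60 of 61 main cycling cells. The radial glial lipid carrier Fabp7 was at 204 and 29 CPM against 4.82 and 0, the glutamate transporter Slc1a3 at 102 and 35.8 against 2.02 and 0, and the receptor Notch1 at 98.5 and 67.6 against 7.96 and 0.995. The others called were Hmga2, Fgfr3, Sparc and Ednrb. The surface protein Cd24a was the member higher in neurons, at 1476 and 1750.1 CPM against 444 and 533. Fabp5, a relative of Fabp7, was at 346 and 397 CPM in cycling cells and 744 and 1120.1 in neurons (adjusted p = 0.215). The intermediate filament gene Vim did not pass the test, with 1174 and 726 CPM in cycling cells and 447 and 745 in neurons (0.79 ± 0.47, adjusted p = 0.748).

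No gene that marks a ventral progenitor domain was called. Of 16 such genes 12 were tested in edgeR, with a median of 3.82, 4 at an unadjusted p under 0.05 and 5 called by DESeq2. Olig2, the motor neuron progenitor factor, was at 69.7 and 23.3 CPM in cycling cells and 8.93 and 0 in neurons (5.31 ± 2.17, adjusted p = 0.305). At 10000 reads it was read in 18 of 61 main cycling cells (29.5%, Wilson 19.6 to 41.9) and 5 of 89 main neurons (5.62%, 2.42 to 12.5). Of 6 domain factors (Olig2, Nkx2-2, Nkx6-1, Irx3, Dbx1 and Foxa2), none was read in 33 of 61 main cycling cells, 1 in 26 and more than 1 in 2. In pilot cycling cells none was read in 18 of 28 and 1 in 10. At this depth a cell with no read cannot be placed outside a domain.

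Among 18 Notch ligands, targets and neurogenic helix-loop-helix genes 17 were tested and none was called by edgeR (median 1.86, 2 at an unadjusted p under 0.05, 1 called by DESeq2). Neurog2, the proneural factor of motor neuron progenitors, was at 128 and 143 CPM in cycling cells and 65 and 53.9 in neurons (adjusted p = 0.609). Of 14 genes of cell cycle exit 3 were called, with a median of 0.07. Cdkn1c, the p57 inhibitor of cyclin-dependent kinases, was at 376 and 832 CPM in neurons against 60.4 and 229 (log2 change -2.14 ± 0.48 SE, adjusted p = 0.0048). Myt1, a zinc finger factor of neuronal differentiation, was at 206 and 419.9 CPM in neurons against 1.92 and 2.85 (-6.87 ± 0.74, adjusted p = 1.7e-08). The third was Ccnd1, higher in cycling cells. With Elavl3 in place of Stmn2 in the gates, Cdkn1c turned direction (4.49).

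**Figure D3:**
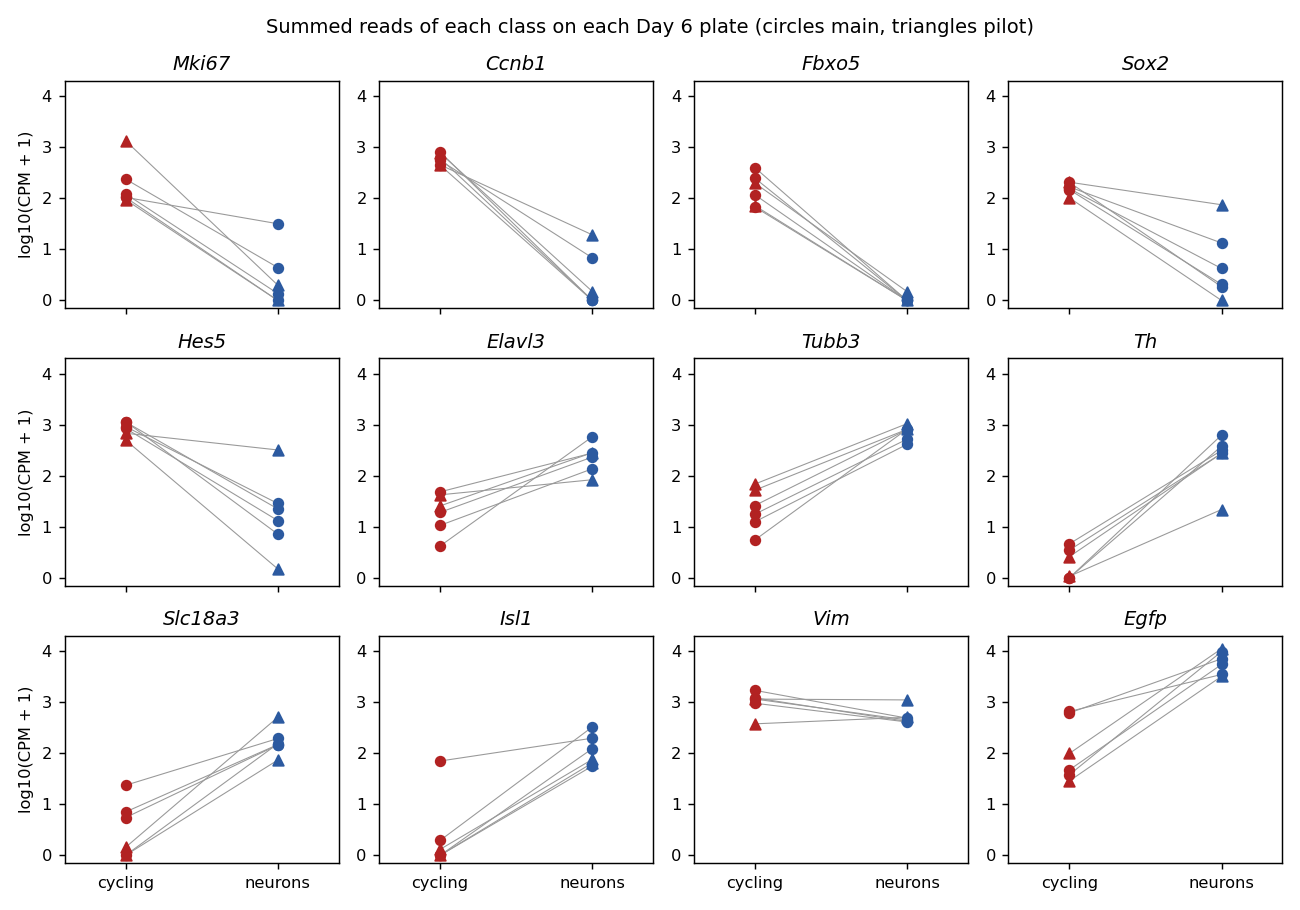
CPM of 12 transcripts in the summed reads of each class on each Day 6 plate, as log10(CPM + 1), circles for main plates and triangles for pilot plates. Lines join the classes of 1 plate. Ccnb1 and Tubb3 did not overlap between classes on any plate, while Vim did.

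Among neuronal lists the axon cytoskeleton had the most called genes. Of 21 growth cone and axon genes 20 were tested and 12 were called, all higher in neurons, with a median log2 change of -3.70. They were the stathmins Stmn3 and Stmn4, the growth cone proteins Gap43, Basp1 and Crmp1, the filament genes Nefl, Nefm, Ina and Prph, and the microtubule-associated Dcx, Mapt and Map2. Nefm was at 2489.5 and 7641 CPM in neurons against 22.9 and 223 in cycling cells (log2 change -5.82 ± 0.57 SE, adjusted p = 2.6e-09). Stmn4 was at 952 and 701 CPM against 14.3 and 6.87 (-6.26 ± 0.58, adjusted p = 9.4e-10). With Elavl3 in place of Stmn2 in the gates Map2 was at 0.32, the other direction. Gap43 and Basp1 were also read in cycling cells, Basp1 at 297 and 150.1 CPM against 1655 and 810.5.

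The tubulin genes split by isotype. Of 12 tested 4 were called higher in neurons and 2 higher in cycling cells, with a median of -0.19. The neuronal beta-tubulin Tubb3 was at 816, 799, 521 and 412 CPM in the neurons of main plates 1 to 4 and at 812 and 1050 in those of the pilot plates. In cycling cells of the same plates it was at 4.5, 25.1, 16.7, 11.5, 51.2 and 67.7 CPM, below every neuron value (log2 change -4.73 ± 0.56 SE, adjusted p = 1e-07). Tuba1a, Tubb2a and Tubb2b were the other isotypes higher in neurons, Tuba1a at 2844 and 1554 CPM against 301 and 186. Tubb4b and Tubb6 were higher in cycling cells, Tubb4b at 965 and 1088 CPM against 351 and 381 (1.60 ± 0.44, adjusted p = 0.035). Near-identical tubulin copies can split or lose reads in counting, so the isotype values are uncertain.

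Of 16 neuronal RNA-binding proteins 15 were tested and 4 were called higher in neurons (median -2.32), Elavl3, Elavl4, Celf3 and the splicing factor Rbfox1. Celf3 was at 272 and 145 CPM in neurons against 9.18 and 3.29. Rbfox1 was at 55.2 and 110.2 CPM against 2.34 and 0.0671, in 19 of 89 and 2 of 8 neurons. Of 15 RNA-binding proteins linked to progenitors 14 were tested and none was called by edgeR (median 0.67, 3 at an unadjusted p under 0.05, 1 called by DESeq2).

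Few motor neuron genes passed the test. Of 18 motor neuron transcription factors 13 were tested and 2 were called, both higher in neurons, with a median of -0.58. The LIM homeodomain factor Isl1 was at 196, 122, 55.1 and 327 CPM in the neurons of the main plates and at 74.8 and 63.5 in those of the pilot plates. In cycling cells it was at 69.3, 0, 0, 0.959, 0.307 and 0 CPM, so the highest cycling plate lay above the 2 lowest neuron plates (log2 change -5.43 ± 1.47 SE, adjusted p = 0.028). Onecut2 was at 205 and 323 CPM in neurons against 30.5 and 20.7, and turned direction with Elavl3 in the gates (1.04). Lhx3, the partner of Isl1, was at 143 and 35.8 CPM in neurons and 68.9 and 28.4 in cycling cells and did not pass (adjusted p = 1). Mnx1 was at 12.3 and 6.57 CPM against 1.17 and 6.64.

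Of 13 cholinergic genes 9 were tested and 3 were called, all higher in neurons, with a median of -5.66. The vesicular acetylcholine transporter Slc18a3 was at 157 and 332 CPM in neurons against 10.4 and 0.235 (log2 change -6.86 ± 1.18 SE, adjusted p = 0.00012). The orphan vesicular transporter Slc10a4 was at 413 and 268 CPM against 4.84 and 7.58. Chat, which makes acetylcholine, did not pass, at 45.9 and 3.98 CPM in neurons against 0.668 and 0.0671 (-5.80 ± 3.29, adjusted p = 0.682). The third called member of the list was Th, tyrosine hydroxylase, the rate-limiting enzyme of catecholamine synthesis and no part of acetylcholine synthesis. Th was at 274, 628, 313 and 381 CPM in the neurons of the main plates and at 275 and 20.8 in those of the pilot plates. In cycling cells it was at 2.5, 0, 3.64, 0, 1.6 and 0.0737 CPM, below every neuron value (-7.61 ± 0.79, adjusted p = 6.9e-09). At 10000 reads Th was read in 51 of 89 main neurons (57.3%, Wilson 46.9 to 67.1), 3 of 8 pilot neurons and 2 of 61 main cycling cells (3.28%, 0.904 to 11.2).

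The Egfp transcript was at 6988 and 7966 CPM in main and pilot neurons against 397 and 65.8 in cycling cells (log2 change -5.42 ± 0.65 SE, adjusted p = 1.5e-07). At 10000 reads it was read in 68 of 89 main neurons (76.4%, 66.6 to 84) and 18 of 61 main cycling cells (29.5%, 19.6 to 41.9). Reads from free RNA or from other wells can place a transcript in a cell that does not make it, and in Day 4 main cells Egfp was read in 0.885% of cells and in Day 2 main cells in 9.86%. In Day 5 main cells, of all classes, Egfp was read in 44.2%. Plates of other days cannot measure the reads carried between wells of a Day 6 plate, and that part was not tested.

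Within main neurons Gata3, a factor of V2b interneurons, was read mostly in cells without Egfp and Isl1 reads. At 10000 reads, Egfp and Slc18a3 were read together in 38 of 89 cells, Slc18a3 without Egfp in 1, and Egfp without Slc18a3 in 30. Egfp and Isl1 were read together in 22 cells, and Isl1 without Egfp in 2. Egfp and Th were together in 47 cells, and Slc18a3 and Th in 30. The V2b factor Gata3 was read in 10 of 89 main neurons (11.2%, 6.22 to 19.5), in 8 of these with its partner Tal1, in 2 with Egfp and in 0 with Isl1. With 10 Gata3 cells, and Isl1 read in 24 of 89 main neurons, 0 joint cells is a weak result. The 1 pilot neuron with Gata3 also had Tal1 and Egfp. None of 5 motor neuron markers (Isl1, Mnx1, Lhx3, Slc18a3, Chat) was read in 24 of 89 main neurons, or in 10 if Egfp is counted with them, and none of 8 interneuron markers was read in 56.

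Of 16 ventral interneuron factors 10 were tested and 3 were called, all higher in neurons (median -1.19), namely Gata3, Tal1 and the helix-loop-helix factor Bhlhe22. Gata3 was at 141 and 45.4 CPM in neurons against 0.751 and 0 (log2 change -8.96 ± 1.72 SE, adjusted p = 0.00063). It came from 10 main and 1 pilot neuron. Bhlhe22 was at 49.1 and 306 CPM against 1.34 and 9.93, with 91% of the pilot reads in 1 cell, and turned direction with Elavl3 in the gates (3.06). No gene of the list of other transmitters (11 genes, 5 tested) was called by edgeR, with 0 at an unadjusted p under 0.05 and 1 called by DESeq2.

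Of 24 synaptic vesicle and secretory granule genes 17 were tested and 4 were called, all higher in neurons (median -2.58). Gamma-synuclein, Sncg, was at 944 and 1490 CPM in neurons against 17.4 and 10.3 (log2 change -6.36 ± 0.58 SE, adjusted p = 9.4e-10). The others were Syt11 and the secretory granule proteins Scg3 and Scg5. Of 15 axonal transport motors 14 were tested and 4 were called, the kinesins Kif5a, Kif5c and Kif21b and the dynein heavy chain Dync1h1 (median -1.86). Kif5c was at 464 and 604 CPM against 43.4 and 89.5, while Kif5b, the broadly used relative, was at 123 and 51.7 CPM in neurons and 141 and 163 in cycling cells (adjusted p = 0.802). Dync1h1, which also serves dividing cells, was at 1140.4 and 2675 against 419 and 518. Kif5a was at 92.9 and 207 CPM against 1.75 and 0.0671.

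Of 25 adhesion and guidance genes 22 were tested and 6 were called, all higher in neurons, with a median of -3.05. Slit2 was at 747 and 839.7 CPM in neurons against 14.2 and 26 (log2 change -5.25 ± 0.55 SE, adjusted p = 9.2e-09), together with Robo1, a Slit receptor, at 181 and 130.3 against 8.77 and 24.3. The axonal adhesion protein Cntn2 was at 798 and 1329.5 CPM against 15 and 72.9. The semaphorin coreceptors Nrp1 and Nrp2 and the adhesion protein Ncam1 were the rest.

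By the same naming rule, the 12 genes with the deepest fitted fall among the called genes were Dab1, Nxnl2, Kif5a, Dio3, Dusp8, Th, Ina, Rbfox1, Sst, Megf11, Bhlhe23 and Ecel1. Dab1, the adaptor of reelin receptors, was at 119.8 and 147 CPM in neurons, with no read in main cycling cells (at least 478-fold lower) and 0.671 CPM in pilot cycling cells. Dusp8, a phosphatase of stress kinases, was at 192 and 66.1 CPM in neurons, in 51 of 89 main neurons. The neuropeptide Sst was at 77.8 and 245 CPM against 0.334 and 2.41, in 10 of 89 main and 5 of 8 pilot neurons. The endopeptidase Ecel1 was at 51.7 and 239 CPM against 1.0 and 0.704. Several of the 12 came from few cells: Dio3, which inactivates thyroid hormone, was read in 5 of 89 main neurons and 1 pilot neuron, and Nxnl2 in 15 and 1.

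Few genes of the positional and housekeeping groups were called. Of 26 Hox and cofactor genes 24 were tested and 2 were called, both higher in neurons (median -0.93), Hoxb5 at 894 and 676 CPM against 255 and 182 and the cofactor Pbx3 at 268 and 288 against 19.3 and 22.6. Pbx3 turned direction with Elavl3 in the gates (2.24). The nuclear receptor Nr2f2 was the 1 called of 13 retinoic acid genes, of which 11 were tested. At an unadjusted p under 0.05 were 6 Hox and 4 retinoic acid genes, and DESeq2 called 2 and 3. None of 24 cytosolic ribosomal protein genes (median 0.44), of 19 genes of oxidative phosphorylation (0.11), of 14 tested p53 targets (0.24) or of 14 tested genes of the BAF and Rest switch (-0.20) was called by edgeR. At an unadjusted p under 0.05 these lists had 1, 0, 1 and 1 genes, and DESeq2 called 1, 0, 0 and 1. Of 18 ribosome biogenesis genes 17 were tested and none was called (1.18), with 6 at an unadjusted p under 0.05 and 1 called by DESeq2. None of 11 tested immediate early genes was called (0.74), with 1 at an unadjusted p under 0.05 and 1 called by DESeq2. Of 11 replication-independent histone genes the variant H2afv was called, at 827 and 519.6 CPM in cycling cells against 179.8 and 108.

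Of 20 glycolysis genes 19 were tested and 2 were called. Hexokinase 2, Hk2, was higher in cycling cells at 87 and 30.5 CPM against 1.12 and 0 (7.53 ± 1.97, adjusted p = 0.021). Neuronal enolase, Eno2, was higher in neurons at 415 and 1774 CPM against 50.8 and 313 (-2.66 ± 0.46, adjusted p = 0.00015). The relative of Hk2, Hk1, was at 8.26 and 5.37 CPM in cycling cells and 63.1 and 48.8 in neurons (-2.95 ± 1.53, adjusted p = 0.576). Of 15 chaperones the mitochondrial pair Hspd1 and Hspe1 was called, Hspd1 at 757 and 888 CPM in cycling cells against 229.5 and 83. Of 20 imprinted and long noncoding genes 17 were tested, 2 were called higher in cycling cells (H19 and Plagl1) and 4 higher in neurons (Meg3, Dlk1, Snhg11 and Cdkn1c). Dlk1 was at 1100 and 561 CPM in neurons against 119 and 93.6. Meg3 and Snhg11 turned direction without pilot plate 1, with log2 changes of 1.96 and 0.97, and all pilot neuron reads of Meg3 came from 1 cell.

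**Figure D4:**
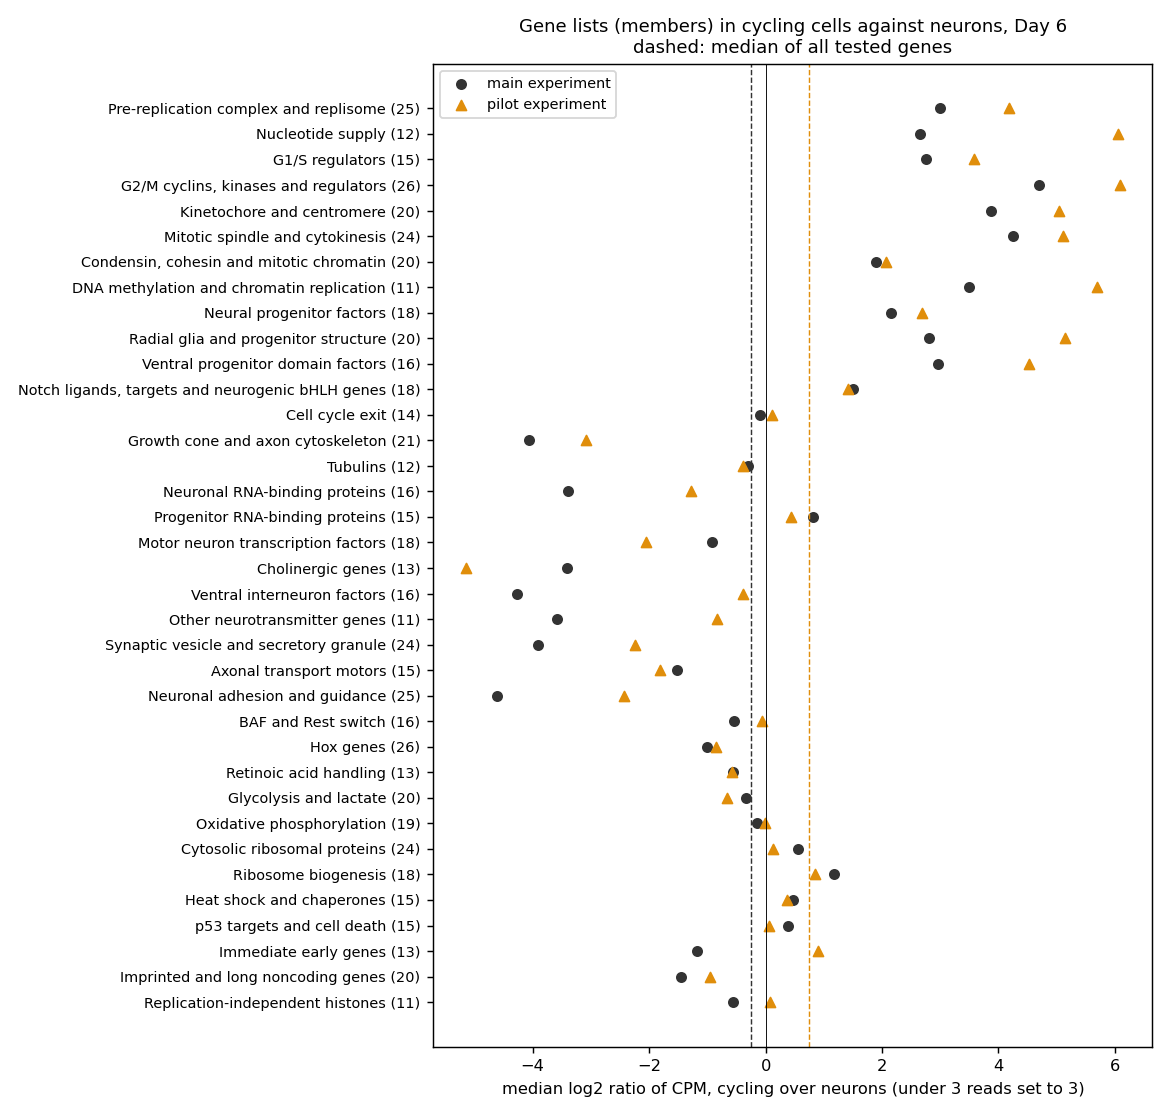
Median log2 ratio of CPM, cycling cells over neurons, of 36 gene lists, with sums under 3 reads set to 3, black circles main and orange triangles pilot. Dashed lines mark the medians of all tested genes, -0.25 (main) and 0.75 (pilot). Lists of the cell cycle lie right of both lines and axon cytoskeleton, cholinergic and adhesion lists left of both.

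Between the classes stood cells that met neither gate. Of kept Day 6 cells, 12 had Top2a at 100 CPM or more together with Stmn2 at 500 CPM or more, 10 of them in the main experiment. At 10000 reads these 10 cells had medians of 13 S phase, 29.5 G2/M, 117.5 neuronal and 73.5 progenitor reads, between the medians of the 2 main classes on all 4 sums. The 2 pilot cells had medians of 26 S phase and 17.5 G2/M reads, between those of the pilot classes. Their medians of 305.5 neuronal and 35 progenitor reads lay beyond those of pilot neurons, at 197 and 42. The 10 cells had a median of 210210.5 gene reads and 3603 genes, above both classes, doublets were not called, and the part of depth or doublets was not tested. A further 119 cells, 111 of them in the main experiment, had 0 Top2a reads and Stmn2 under 100 CPM. The 111 had medians of 60 progenitor and 30 neuronal reads, with the progenitor sum the higher in 80 cells. In the gated main cells, the progenitor sum was the higher in 56 of 61 cycling cells and the neuronal sum in 83 of 89 neurons.

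The same gate on Day 5 gave 238 cycling cells and 13 neurons, 10 main and 3 pilot. Of 11718 genes tested 89 were called (0.76%), 49 higher in cycling cells (0.418%) and 40 higher in neurons (0.341%). Of the 174 genes called higher in cycling cells on Day 6, 170 had that direction on Day 5 (97.7%, against 76.5% of all genes tested), and 28 were called, 16.1% of the 174 and 57.1% of the 49. Of the 140 higher in neurons 125 were tested on Day 5, 106 kept the direction (84.8%, against 23.5%) and 29 were called, 20.7% of the 140 and 72.5% of the 40. Day 5 and Day 6 cells were different cells of the same 2 experiments. The same gate chose both, so genes that go with Top2a or Stmn2 follow the choice of cells. The agreement describes the classes and is no independent replication. Among the leading Day 5 genes, Plk1 was at 206 and 388 CPM in cycling cells against 0 and 0.618 in neurons. Without the block no gene was called on Day 5 (edgeR, 2533 genes at an unadjusted p under 0.05).

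The Day 6 plate labelled eGFP+ held 20 cycling cells and 19 neurons by the same gate, in 1 experiment and so with no test. Of the 174 genes higher in cycling cells 168 had a value there and 153 had the same direction (91.1%, against 48.8% of 9183 genes), with a median log2 ratio of 3.32. Of the 140 higher in neurons 127 had a value and 105 had the same direction (82.7%, against 51.2%), with a median of -2.71. Since the gate was the same, these shares also follow the choice of cells and describe the classes. Ccnb1 was at 1032 CPM in the cycling cells of that plate and 2.67 in its neurons, and Nefm at 89.7 and 1636. The Egfp transcript ran the other way there, at 794 CPM in the 20 cycling cells and 1.0 CPM in the 19 neurons, which goes against the plate's label for the neurons.

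The difference between the Day 6 and the Day 5 contrast was tested for 12786 genes, and 2 were called (0.0156%), Id4 and Ept1. Id4 was at 16.2 and 12 CPM in Day 5 cycling cells and had no read in the 13 Day 5 neurons, while on Day 6 it was at 437 and 192 CPM in neurons (difference -16.09 ± 3.09 SE, adjusted p = 0.0024). Ept1, an ethanolaminephosphotransferase gene of phospholipid synthesis, was at 62.9 and 139.6 CPM in Day 5 cycling cells against 4.72 and 0 in neurons, and on Day 6 at 74.5 and 88.6 against 232 and 361 (-7.94 ± 1.74, adjusted p = 0.033). Neither was called when cells with a read were counted in place of reads.

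Cycling cells of Day 6 and Day 5 were compared directly, and 0 of 12786 genes were called (0.0%) by edgeR, with 79 at an unadjusted p under 0.05 and 7 called by DESeq2. No gene of the cell cycle lists was at an unadjusted p under 0.05. The genes with the highest fitted changes at an unadjusted p under 0.05 included Sox9, a progenitor factor, at 381 and 175 CPM in main and pilot cycling cells on Day 6 against 176 and 5.14 on Day 5, and Nsg1, a neuronal endosomal protein, at 142 and 66.8 against 38.4 and 12.5. Stra8, a retinoic acid target, was at 7.6 and 349 CPM against 264 and 1531. These passed no threshold after adjustment (adjusted p = 1 each).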

How the data were processed

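Gene counts were used as the authors deposited them, as 1 table of raw read counts per plate with a column per cell. Per the submitters' processing notes, TopHat2 2.1.1, HTSeq 0.6.1 and mm10 were used, with roles and strand setting not given. Reads carry no molecular identifiers, so intervals cover counting error only. Samples were grouped by plate from the labels, wells were not matched to single samples, and 40 columns that match no sample were not used. Tables have 24092 rows, of which 92 are spike-ins. Of Day 6 reads, 32.8% were in tally rows that name no gene and 10.4% in spike-ins, and both stayed out of totals and tests. CPM is a gene's reads over all gene reads, and 27 rows whose names had turned into dates were left out of the tests. No 2 kept cells had identical counts. Columns name no cell barcode, so shared barcodes were not counted, and doublets were not called.

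Reads were summed per class and experiment (main cycling 11979340, main neurons 14326041, pilot cycling 29821705, pilot neurons 5025346 gene reads), filtered with filterByExpr, scaled by TMM and tested in edgeR 4.0.16 (R 4.3.3) with experiment and class as terms and Benjamini-Hochberg adjustment at 0.05. Both classes came from the same cultures, which is where the pairing by experiment comes from. Over 11341 genes the deviations of the classes between experiments correlated at r = 0.05 (genes are not independent replicates). Per-cell readouts were compared over 6 plates with an exact sign-flip test. Python 3.11.15 and DESeq2 1.42.0 served the rest, and the edgeR fit was tested on simulated data. Alternatives covered the test, scaling, filter, block, replicate unit, gates, thinning to 10000 reads and each plate left out. Gene positions are from GENCODE M21. The cells, the gene lists and the naming rule (the 12 called genes with the highest and the 12 with the deepest change, with 1 direction and at least 50 CPM in the higher class in both experiments and an established name, the leading genes of each list, the markers, and the leading 5 each way of the other comparisons) were chosen with earlier results of these data known.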

Additional observations from a re-analysis of the deposited data

Results flagged for a closer look

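The difference between cycling cells and neurons in log2 genes with a read was 0.61 on pilot plate 2, far from the other 5 plates. That plate held 12 cycling cells and 4 neurons. About 1 in 20 groups is set apart in this way by chance.

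Id4 differed between Day 6 and Day 5 in the contrast of the classes by -16.09 on the log2 scale (edgeR interaction test, adjusted p = 0.0024), and the size depends on the prior count because no Day 5 neuron had a read. Ept1 differed by -7.94 (adjusted p = 0.033). Both were higher in neurons on Day 6 and lower on Day 5, and the Day 5 neuron sums came from 13 cells.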

How the results depend on the processing

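Of the 314 called genes, all that were tested kept their direction under DESeq2, both other scalings, no filter, thinning, plates as replicates, main plates alone, the Top2a and Stmn2 gates at other levels, 1000 genes per cell and every plate left out but pilot plate 1. The other direction was fitted for 5 genes without pilot plate 1, 6 on pilot plates alone, 4 with cells counted, 1 with Mki67 and 19 with Elavl3 in the gates. The count was 847 with DESeq2, 13 with no replicate block, 518 for main plates and 69 for pilot plates alone, 2 with 8 sums, 738 with cells with a read counted, 126 with neurons at Stmn2 1000 CPM, 478 with Mki67 and 42 with Elavl3 in the gates. Leaving out each plate in turn gave 77 to 392 genes. Of all calls, 55.4% were higher in cycling cells, 47.5% with library size alone and 66.1% with plates as replicates. The median log2 change of all genes was 0.47 with TMM and 0.36 with library size alone. The Day 5 count of 89 became 151 with DESeq2, 0 without the replicate block and 2996 with plates as replicates, and the difference between days (2) became 65, 0 with cells counted and 15 with plates. Day 6 against Day 5 cycling cells gave 7 with DESeq2 and 12 with cells counted. The Elavl3 gate left 17 main and 2 pilot neurons, so its sums rest on few cells. With Elavl3 in the gates, 6 of 92 named genes turned direction: Id4 2.07, Cdkn1c 4.49, Onecut2 1.04, Bhlhe22 3.06, Pbx3 2.24 and Map2 0.32. Meg3 (-3.24 to 1.96 over plates left out) and Snhg11 (-3.40 to 0.97) also turned, to 1.72 and 1.84 on pilot plates alone and to 1.96 and 0.97 without pilot plate 1. The cause was not tested. None of the 4 per-cell readouts passed 0.05 after adjustment under any alternative, and with a plate left out the exact test could not reach it. A gene read in 0 of 8 pilot neurons could still be read in up to 37.5% of such cells.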
